A study of Homo sapiens with 12 samples.

Results

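The genes described here are the 12294 genes with a mean normalised read count of 50 or more in the comparison of MOLM13 cells carrying hairpin 2 against IGF2BP3 with MOLM13 cells carrying a control hairpin. They were taken from 26337 genes listed for that comparison and from 32321 genes listed over the 4 comparisons of the series. MOLM13 is an established human acute myeloid leukaemia (AML) line of monocytic type, with a fusion of the KMT2A gene and an internal tandem duplication in FLT3. The cells received lentivirus encoding a short hairpin RNA. The shBP3-2 group carried hairpin 2 against IGF2BP3, the shBP3-1 group carried hairpin 1 against the same gene, and the shNS group carried the control hairpin, with 2 libraries in each group. The titles of the MOLM13 libraries call their RNA total RNA, and capture of polyadenylated RNA on beads before sequencing is also described. Whether that capture held for the MOLM13 libraries was not tested. RN7SL1, a noncoding RNA with no poly(A) tail of its own, was among the 15 genes with the most reads in them. The series also holds U937 cells, another monocytic line, in which IGF2BP3 carries a degron tag (BP3-mAID) and was degraded by 5-Ph-IAA for 6 or 24 h or left untreated (NT), with 2 libraries in each of these groups. Each of these groups rests on a single cell line, the hairpin lines share one control group, and no source used here says whether the 2 libraries of a group came from separate cultures, so the p-values cover the spread between these libraries, which may be only technical. Which promoter drives the hairpins and whether the cells were cloned is not given in the sources used here.

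IGF2BP3 is an RNA-binding protein of the insulin-like growth factor 2 mRNA-binding family that is abundant in the embryo, low in most adult tissues and made again in many cancers. It binds messenger RNAs, many of them at sites carrying the N6-methyladenosine (m6A) mark, and protects them from decay or alters their translation. Transcripts it is known to bind in leukaemia include MYC and HOXA genes.

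All log2 fold changes and adjusted p-values given below for single genes are those of the authors' deposited table, in which the authors' DESeq2 fit was adjusted over the 20768 genes they tested. A gene was called higher or lower where that adjusted p was under 0.05. The mean of each group was worked out from the deposited mean over the 4 libraries and the fold change, since values per library were not used here. Intervals of 95% rest on standard errors recovered from the deposited p-values.

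IGF2BP3 itself (ENSG00000136231.14, chromosome 7, 23310209 to 23470467 on the minus strand of hg38) averaged 918 normalised reads in shBP3-2 cells and 1879.5 in shNS cells. Its level with hairpin 2 was 48.8% of that in shNS cells (log2 fold change -1.03, 95% interval -1.22 to -0.85, adjusted p = 1.6e-26), and with hairpin 1 its log2 fold change was -1.32. Its relative IGF2BP1 averaged 1574 normalised reads in shBP3-2 cells and 1915 in shNS cells (log2 fold change -0.28, adjusted p = 0.0039). IGF2BP2, the third gene of the family, was at 3588 in shBP3-2 against 3513 in shNS normalised reads with an adjusted p of 0.82.

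Of 16 markers of monocytic AML, 15 reached the minimum, and CD68 alone did not, at a mean of 5.99 normalised reads. Of these 15, 9 were called higher, 3 lower and 3 were not called. The lower ones were FLT3 (4221 in shBP3-2 against 13595 in shNS), MPO (72.7 in shBP3-2 against 407 in shNS) and KMT2A (1413 in shBP3-2 against 2031 in shNS). CD33 averaged 1146 normalised reads in shBP3-2 cells and 1182 in shNS cells, SPI1 averaged 2884 in shBP3-2 against 2105 in shNS and PTPRC averaged 11784 in shBP3-2 against 8544 in shNS, so the line carried the myeloid markers of its label in both groups. The summed level of these markers was 299320.0 normalised reads in shBP3-2 cells and 69699.9 in shNS cells. LYZ, the lysozyme gene, made up most of the sum in shBP3-2 cells but not in shNS cells, at 231844 in shBP3-2 against 23486 in shNS. Of the other marker lists, 1 of 13 erythroid, 5 of 8 megakaryocyte and platelet and 6 of 10 stromal and epithelial markers were listed at all. Their summed levels were 0.501, 16.2 and 21.4 normalised reads in shBP3-2 cells and 0.496, 25.9 and 17.5 in shNS cells, and none reached the minimum. Of 13 lymphoid markers 3 reached the minimum, namely PAX5 (654 in shBP3-2 against 1047 in shNS), NCAM1 (3472 in shBP3-2 against 2972 in shNS) and NKG7 (303 in shBP3-2 against 357 in shNS), and CD3D and CD79B were near 0.

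Most of the genes with a measurable level changed. Over all 20768 tested genes 41.5% were called. With hairpin 2, 7686 of the 12294 genes (62.5%) were called, 3396 of them higher (27.6%) and 4290 lower (34.9%), and these shares are the background against which the counts of the gene groups below are read. A change of at least 2-fold was seen in 1224 genes called higher and 1306 called lower, and a change of at least 8-fold in 60 and 49. The median log2 fold change of the 12294 genes was -0.061, and that of all tested genes was 0.020. Genes called lower prevailed among the more abundant transcripts, with 342 lower and 228 higher of 718 genes at 5000 or more normalised reads, and genes called higher prevailed among the less abundant, with 667 higher and 452 lower of 2657 genes between 50 and 200. In bulk RNA, fewer cells of a type and less RNA per cell cannot be told apart. The 12294 genes held 99.4% of all normalised reads, and the mean normalised counts of all listed genes summed to 22028570 per library. Just inside the minimum of 50 stood ENSG00000286162 at 50.01, ESRRB at 50.03 and ENSG00000285589 at 50.07 normalised reads, and just outside it LINC00339 at 49.93, ENSG00000253200 at 49.94 and ENTPD3-AS1 at 49.99. A minimum on the mean favours genes that are high in either group, so counts over a list describe its measured members and not the whole list.

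**Figure D1:**
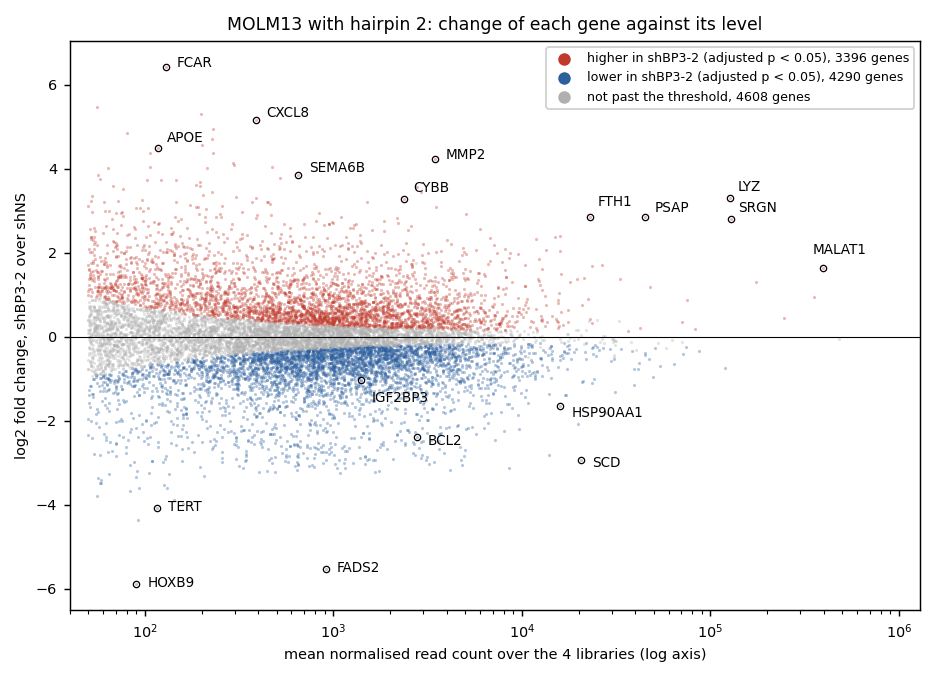
Each point is 1 of the 12294 genes, placed by its mean normalised read count over the 4 libraries (log axis) and its log2 fold change in shBP3-2 over shNS cells, in red where it was higher, in blue where it was lower and in grey where it did not pass an adjusted p of 0.05. FCAR stood highest at a log2 fold change of 6.43 and HOXB9 lowest at -5.88, and LYZ, SRGN and MALAT1 combined a high level with a rise.

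Genes of the lysosome, the acidic compartment in which cells digest ingested and discarded material, were mostly higher with hairpin 2. Of 39 genes listed for lysosomal hydrolases of glycans and lipids and their activators, 36 reached the minimum; 31 were called higher, 0 lower and 5 were not called, with a median log2 fold change of 1.26. PSAP, the precursor of the saposins that help enzymes reach sphingolipids, averaged 79121 normalised reads in shBP3-2 cells and 11042 in shNS cells. SGSH, the sulfamidase that degrades heparan sulfate, averaged 366 in shBP3-2 against 28.6 in shNS (log2 fold change 3.68, 95% interval 3.13 to 4.22), and SMPD1, the acid sphingomyelinase, 361 in shBP3-2 against 54.8 in shNS (2.72, 2.26 to 3.18). GM2A, which presents ganglioside GM2 to its hydrolase, and NPC2, which carries cholesterol out of the lysosome, were at 6659.7 in shBP3-2 against 1352 in shNS and 606 in shBP3-2 against 138 in shNS. ACP5, the tartrate-resistant acid phosphatase of macrophages and osteoclasts, had the largest change of the list at 387 in shBP3-2 against 16.3 in shNS, with a wide interval of 3.23 to 5.91 on the log2 scale. The 5 members that were not called were GUSB, HYAL2, PLA2G15, AGA and ACP2, with log2 fold changes between -0.24 and 0.087.

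Genes of the proton pump that acidifies this compartment were also mostly higher. Of 15 measured genes of the vacuolar ATPase and its accessory proteins, 14 were higher and 1 was lower, with a median of 0.61. ATP6V1F rose most, at 3324 in shBP3-2 against 1163 in shNS normalised reads (log2 fold change 1.52, 95% interval 1.35 to 1.68), while the accessory subunits ATP6AP2 and ATP6AP1 were at 3799 in shBP3-2 against 1909 in shNS and 6128 in shBP3-2 against 3140.4 in shNS. The exception was ATP6V0A2, an alternative membrane subunit, at 1809.5 in shBP3-2 against 3155 in shNS (log2 fold change -0.802, adjusted p = 6.3e-22).

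Promoters of these genes were searched for the CLEAR element (GTCACGTGA, either strand), the site bound by the TFEB family of lysosomal regulators, in the 250 bases before the start in RefSeq's promoter table (GRCh38.p14). It overlaps the general E-box CACGTG. It was found in 3 of the 25 lysosomal hydrolase promoters in the table, those of CTSA, GAA and GALNS (12%), and in 2 of 10 promoters of the vacuolar ATPase (20%), against 211 of 27305 promoters overall (0.773%) and 148 of the 9093 promoters of genes that reached the minimum (1.63%). The stretches around 4 of these matches are printed 5′ to 3′ with the match in capitals, because promoters of both lists hold the same letters. They lie at chr20:45891269-45891334 on the plus strand for CTSA, chr17:80101463-80101580 plus for GAA, chr16:67481170-67481258 minus for ATP6V0D1 and chr9:114587669-114587758 plus for ATP6V1G1. The GAA promoter holds 2 separate matches, each readable on both strands.
CTSA: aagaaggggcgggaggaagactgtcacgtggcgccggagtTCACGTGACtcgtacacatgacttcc
GAA: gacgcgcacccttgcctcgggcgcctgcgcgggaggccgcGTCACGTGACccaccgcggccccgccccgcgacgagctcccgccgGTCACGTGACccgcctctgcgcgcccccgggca
ATP6V0D1: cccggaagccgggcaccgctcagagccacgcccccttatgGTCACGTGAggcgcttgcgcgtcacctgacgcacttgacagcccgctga
ATP6V1G1: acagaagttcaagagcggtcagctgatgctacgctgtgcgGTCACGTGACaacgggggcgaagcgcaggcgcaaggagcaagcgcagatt
Genes with these stretches differed in the size of their change. CTSA, protective protein cathepsin A, averaged 9282 normalised reads in shBP3-2 cells and 2212 in shNS cells (log2 fold change 2.07), and GAA, the acid alpha-glucosidase, averaged 3281 in shBP3-2 against 866 in shNS (1.92). ATP6V0D1 was at 1870.1 in shBP3-2 against 1227 in shNS (0.61) and ATP6V1G1 at 1228 in shBP3-2 against 824 in shNS (0.58, adjusted p = 5.5e-07), both subunits of the pump. GALNS, a sulfatase whose promoter is not printed, was at 879.9 in shBP3-2 against 713 in shNS (0.304, adjusted p = 0.039). Searches of the same window found no sterol regulatory element (TCACNCCAC) in 21 promoters of fatty acid synthesis genes and no amino acid response element (TGATGNAAT) in 20 promoters of amino acid transporters or 30 of aminoacyl-tRNA synthetases. No interferon-stimulated response element (GAAA and GAAAC separated by any 2 bases) was found in 8 promoters of LILR and Siglec receptors. Those 3 motifs occur in 0.875%, 0.916% and 0.641% of all promoters of the table and in 0.803%, 0.44% and 0.66% of those of genes that reached the minimum.

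Receptors with which monocytes and macrophages recognise antibody, microbes and dying cells were mostly higher. Of 10 measured Fc receptor genes, 7 were higher and 2 lower (median log2 fold change 1.04). FCAR, the receptor for IgA, averaged 256 normalised reads in shBP3-2 cells and 2.96 in shNS cells, the largest change of the 12294 genes (log2 fold change 6.43, 95% interval 5.18 to 7.68, adjusted p = 7e-23). Its log2 fold change with hairpin 1 was -1.63, with no adjusted p listed. FCGRT, which rescues IgG from degradation, and FCGR2A, an activating IgG receptor, were at 3486 in shBP3-2 against 897 in shNS and 2340.2 in shBP3-2 against 857 in shNS, and FCGR2B, an inhibitory IgG receptor, at 2255 in shBP3-2 against 966 in shNS. Reads of FCGR2B and its near copy FCGR2C may have been divided between them, so their single values are uncertain. The members that fell were FCER1G, the shared signalling chain of several Fc receptors, at 20.5 in shBP3-2 against 119.8 in shNS (log2 fold change -2.54), and FCMR, the IgM receptor, at 20.5 in shBP3-2 against 79.98 in shNS (-1.96).

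Of 11 leukocyte immunoglobulin-like and Siglec receptors and their relatives, 7 were higher, 0 lower and 4 not called (median 1.305). SIGLEC1, the sialic acid-binding sialoadhesin of macrophages, averaged 402 normalised reads in shBP3-2 cells and 24.7 in shNS cells, and the inhibitory receptors PILRA, LILRB2 and LILRB4 averaged 820.3 in shBP3-2 against 110.1 in shNS, 259.6 in shBP3-2 against 55.3 in shNS and 2056 in shBP3-2 against 460.4 in shNS. The LILR genes are close copies of each other and reads may have been shared among them. C-type lectins and scavenger receptors gave 13 higher and 1 lower of 15 (median 1.23). Among them the neighbours CLEC12A, CLEC12B and CLEC7A on chromosome 12 stood at 2722 in shBP3-2 against 295 in shNS, 416 in shBP3-2 against 38.00 in shNS and 1204 in shBP3-2 against 188 in shNS normalised reads. CLEC12A encodes an inhibitory receptor of myeloid cells and CLEC7A encodes Dectin-1, the receptor for fungal beta-glucan. The scavenger receptors MARCO and CD163, of which CD163 takes up haemoglobin bound to haptoglobin, were at 109 in shBP3-2 against 11.8 in shNS and 154 in shBP3-2 against 45.9 in shNS. STAB1 was the member that fell, at 74.7 in shBP3-2 against 171 in shNS.

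Pattern recognition receptors and their adaptors gave 23 higher and 3 lower of 30 (median 0.66). TLR4, the receptor for bacterial lipopolysaccharide, averaged 725 normalised reads in shBP3-2 cells and 166 in shNS cells (log2 fold change 2.12), TLR8, which senses single-stranded RNA, 313 in shBP3-2 against 68.6 in shNS (2.19), and NOD2, a cytosolic sensor of bacterial muramyl dipeptide, 1003 in shBP3-2 against 211 in shNS (2.25). TREM1 and TREM2, receptors that signal through the adaptor TYROBP, were at 235 in shBP3-2 against 42.9 in shNS and 128 in shBP3-2 against 31.1 in shNS, and TYROBP itself at 3759 in shBP3-2 against 903 in shNS. Complement components and their receptors and regulators gave 8 higher and 0 lower of 9, with a median of 1.76, or 1.41 with no minimum on the mean count. C3, the central component, averaged 1542 normalised reads in shBP3-2 cells and 302 in shNS cells, CFD, the protease that starts the alternative pathway, 6897 in shBP3-2 against 1495 in shNS, and CR1, a receptor for opsonised particles, 87.2 in shBP3-2 against 16.8 in shNS. With hairpin 1 the log2 fold change of CR1 was -1.54 (adjusted p = 0.19), while 5 of the 9 complement genes were higher and 1 lower. Both chains unique to the complement receptors that are integrins, ITGAX and ITGAM, were at 3804 in shBP3-2 against 583 in shNS and 3293 in shBP3-2 against 1499 in shNS.

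Genes for soluble signals and their receptors were mixed. Of 5 measured chemokines 4 were higher and 1 lower (median 2.02, or 1.22 with no minimum on the mean count). CXCL8, a neutrophil attractant, averaged 755 normalised reads in shBP3-2 cells and 21.2 in shNS cells, CXCL16 averaged 472 in shBP3-2 against 115 in shNS and CCL23 208 in shBP3-2 against 51.3 in shNS, while CCL5 fell, at 143 in shBP3-2 against 255 in shNS. Of 13 receptors for chemokines, formyl peptides and lipid mediators 9 were higher and 2 lower (median 1.12). The formyl peptide receptor FPR1 was at 115 in shBP3-2 against 14.3 in shNS, the complement receptor C5AR1 at 151 in shBP3-2 against 46.9 in shNS and the platelet-activating factor receptor PTAFR at 2531 in shBP3-2 against 837 in shNS. In the TNF superfamily, with 12 higher and 3 lower of 19 (median 0.81), the leading genes were CD70, the ligand of CD27, at 2413 in shBP3-2 against 590.2 in shNS, and the receptors TNFRSF14 and TNFRSF21 at 227 in shBP3-2 against 58.7 in shNS and 364 in shBP3-2 against 111 in shNS. Interleukins, growth factors and their receptors gave 13 higher and 9 lower of 29 (median 0.28). FLT3, the growth factor receptor that drives many myeloid leukaemias, fell to 4221 normalised reads in shBP3-2 cells, against 13595 in shNS cells (log2 fold change -1.69, 95% interval -1.81 to -1.56, adjusted p = 5.7e-154). CSF3R, the granulocyte colony-stimulating factor receptor, was higher at 7481 in shBP3-2 against 2896 in shNS, as was the TGF-beta receptor TGFBR1 at 17485 in shBP3-2 against 6763 in shNS, and the growth factor PDGFA was lower at 225 in shBP3-2 against 734 in shNS.

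Adhesion and matrix genes rose more often than they fell, with the cadherins as the exception. Of 23 integrins and their partners 14 were higher and 4 lower (median 0.66). ITGA6, a laminin receptor chain, averaged 263 normalised reads in shBP3-2 cells and 28.6 in shNS cells, ITGB2, the common chain of the leukocyte integrins, 25547 in shBP3-2 against 10399 in shNS, PECAM1 25699 in shBP3-2 against 6287 in shNS and ICAM3 5109 in shBP3-2 against 1276 in shNS. Cadherins and protocadherins gave 2 higher and 5 lower of 10 (median -0.904), and 3 of those that fell, PCDHGC5 (14.03 in shBP3-2 against 171 in shNS), PCDHGA10 (21.5 in shBP3-2 against 89.3 in shNS) and PCDHGC3 (43.6 in shBP3-2 against 180.1 in shNS), belong to the gamma protocadherin cluster on chromosome 5, whose transcripts share their 3′ exons. Tetraspanins and MS4A proteins, which organise membrane receptors, gave 11 higher and 1 lower of 17 (median 0.86), led by CD82 at 1312 in shBP3-2 against 254 in shNS and CD37 at 1592 in shBP3-2 against 551 in shNS.

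Among matrix proteins 17 of 23 were higher and 3 lower (median 1.16, or 0.63 with no minimum). SRGN, the proteoglycan of haematopoietic secretory granules, averaged 224590.0 normalised reads in shBP3-2 cells and 32201 in shNS cells (log2 fold change 2.802, 95% interval 2.51 to 3.096) and was 1 of the 15 genes with the most reads. The proteoglycans HSPG2 and VCAN were at 1185 in shBP3-2 against 230.4 in shNS and 1485 in shBP3-2 against 192 in shNS. MFAP4, a microfibril-associated glycoprotein, and EMILIN1, an elastic fibre protein, were lower at 172 in shBP3-2 against 962 in shNS and 30.1 in shBP3-2 against 138 in shNS. Matrix proteases and their inhibitors gave 21 higher and 2 lower of 31 (median 0.61). The gelatinase MMP2 averaged 6588 normalised reads in shBP3-2 cells and 349 in shNS cells (log2 fold change 4.24, with an adjusted p listed as 0 and so no recoverable interval). MMP19 was at 215 in shBP3-2 against 44.9 in shNS, the antitrypsin gene SERPINA1 at 86.7 in shBP3-2 against 16.8 in shNS, and THBD, the thrombin-binding thrombomodulin, at 3103 in shBP3-2 against 767 in shNS. Calcium-binding S100 proteins and annexins gave 12 higher and 3 lower of 18 (median 0.84, or 0.48 with no minimum), among them S100A6 at 8033 in shBP3-2 against 2046 in shNS, S100A11 at 3955 in shBP3-2 against 1193 in shNS and S100A10 at 2831 in shBP3-2 against 1022 in shNS.

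**Figure D2:**
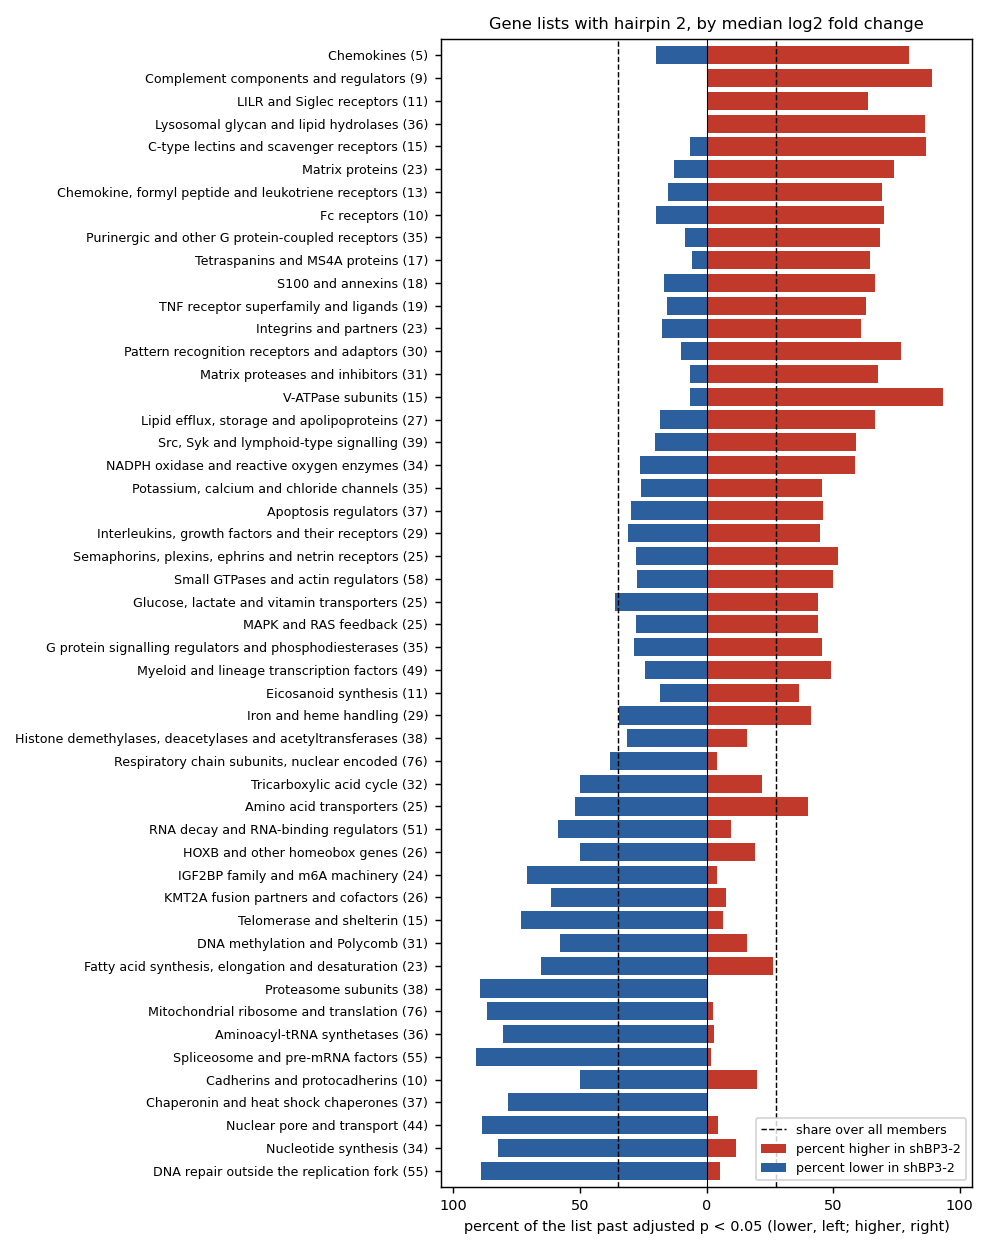
Each bar gives the percent of a list's measured genes (their number in brackets) called higher in shBP3-2 cells (red, to the right) or lower (blue, to the left), with lists ordered by median log2 fold change and the shares over all 12294 genes as dashed lines (27.6% higher, 34.9% lower). Chemokines and complement stand at the top, followed by lists of LILR and Siglec receptors, lysosomal hydrolases and C-type lectins, and lists of DNA repair, nucleotide synthesis and nuclear transport at the bottom.

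Genes for the catalytic and an organising subunit of the phagocyte oxidase, which makes superoxide, were higher. CYBB, the catalytic subunit gp91phox, averaged 4323 normalised reads in shBP3-2 cells and 446 in shNS cells (log2 fold change 3.28, 95% interval 3.09 to 3.47, adjusted p = 1.2e-249). NCF1, the organising subunit p47phox, and its near-identical pseudogenes NCF1B and NCF1C were at 2953 in shBP3-2 against 749 in shNS, 1647 in shBP3-2 against 258 in shNS and 3140.3 in shBP3-2 against 552 in shNS, and counting may have split their reads. In the whole list of oxidase and reactive oxygen genes 20 of 34 were higher and 9 lower (median 0.38), the lower ones including 5 peroxiredoxins and SOD1 (genes named after their values were seen), with log2 fold changes between -1.13 and -0.44.

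Iron storage genes were higher within a mixed list. FTH1 and FTL, the ferritin chains that store iron, averaged 40356 in shBP3-2 against 5628 in shNS and 40577 in shBP3-2 against 12379.6 in shNS normalised reads (log2 fold changes 2.84 and 1.71), and HMOX1, which breaks down haem, averaged 704 in shBP3-2 against 71.6 in shNS (3.298, 95% interval 2.92 to 3.68). SLC48A1, a haem carrier of the lysosomal membrane, was also higher, at 635 in shBP3-2 against 218 in shNS. Of 29 measured genes 12 were higher and 10 lower (median 0.089).

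Lipid genes divided by role. Genes of lipid efflux, storage and transport gave 18 higher and 5 lower of 27 (median 0.51). APOE, the apolipoprotein that macrophages secrete with cholesterol, averaged 224 normalised reads in shBP3-2 cells and 9.87 in shNS cells (log2 fold change 4.504, 95% interval 3.704 to 5.31), and its chromosome 19 neighbour APOC1 averaged 107 in shBP3-2 against 17.3 in shNS. PPARA, a fatty acid-sensing nuclear receptor, and the lipid transporter ABCA7 were at 1444 in shBP3-2 against 350.4 in shNS and 3954 in shBP3-2 against 1017 in shNS. Genes of fatty acid synthesis, elongation and desaturation gave 6 higher and 15 lower of 23 (median -0.499). FADS2, the delta-6 desaturase of polyunsaturated fatty acids, fell to 38.6 normalised reads in shBP3-2 cells, against 1782 in shNS cells (log2 fold change -5.53, 95% interval -5.91 to -5.15, adjusted p = 5.6e-174). SCD, the stearoyl-CoA desaturase, was at 4751 in shBP3-2 against 36491 in shNS (log2 fold change -2.94, adjusted p listed as 0), FASN, the fatty acid synthase, at 4134 in shBP3-2 against 14964 in shNS, and SREBF1, which encodes their transcription factor, at 1148 in shBP3-2 against 4540.0 in shNS. Eicosanoid genes gave 4 higher and 2 lower of 11 (median 0.12), with the prostaglandin receptor PTGER4 at 2551 in shBP3-2 against 812 in shNS, the leukotriene cofactor ALOX5AP at 1003 in shBP3-2 against 332 in shNS and the cyclooxygenase PTGS1 at 1053 in shBP3-2 against 379.6 in shNS.

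**Figure D3:**
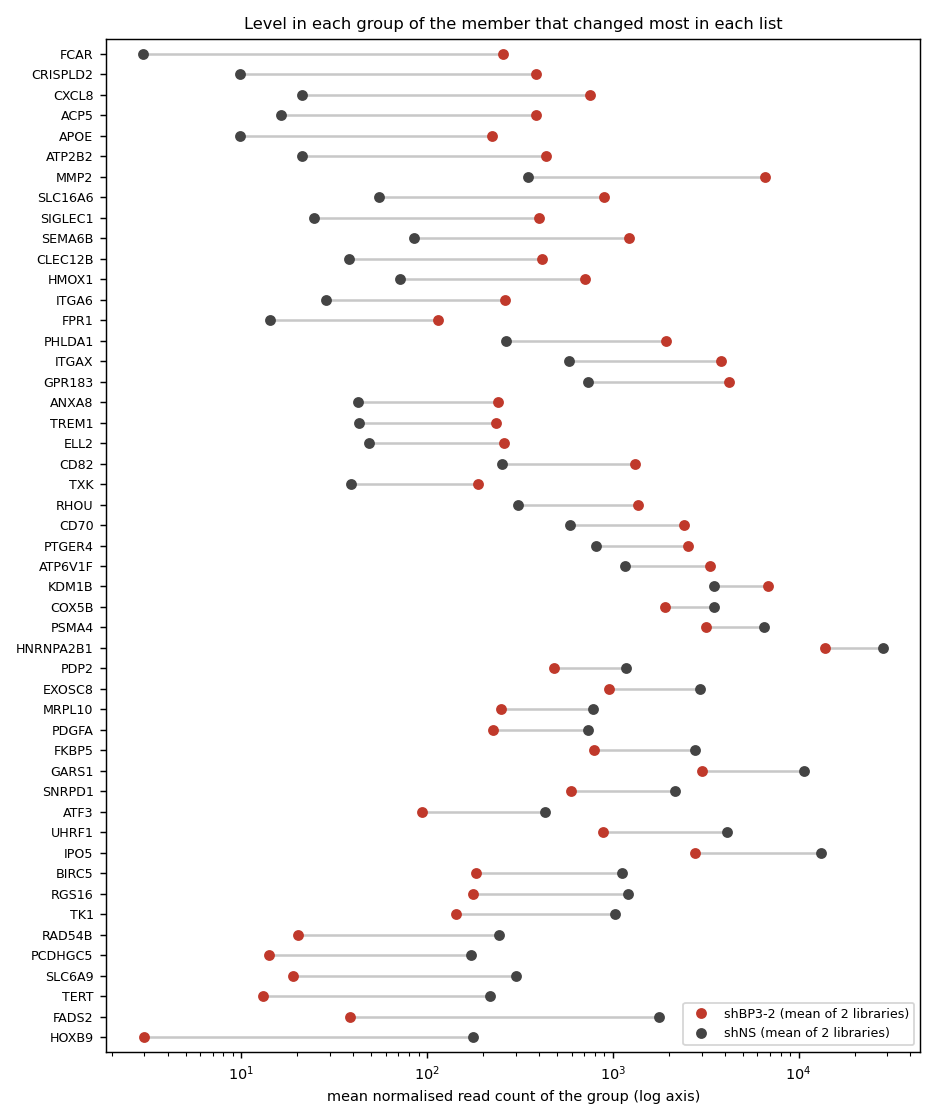
Each row is the gene with the largest absolute log2 fold change in 1 of the lists, with its mean normalised read count in shBP3-2 cells (red) and in shNS cells (dark grey), each the mean of 2 libraries, on a log axis. Rows run from FCAR at the top, at 256 in shBP3-2 against 2.96 in shNS, to HOXB9 at the bottom, at 3.01 in shBP3-2 against 177 in shNS.

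Genes that build and mend DNA were mostly lower. Of 34 nucleotide synthesis genes 28 were lower and 4 higher (median -1.21). TYMS, the thymidylate synthase, fell to 683 normalised reads in shBP3-2 cells, against 4097 in shNS cells, and the thymidine kinase TK1 fell to 144 in shBP3-2, against 1026 in shNS. The ribonucleotide reductase subunits RRM2 and RRM1 were at 861 in shBP3-2 against 4939.5 in shNS and 713 in shBP3-2 against 3642 in shNS, and PAICS, a purine synthesis enzyme, at 1878 in shBP3-2 against 8469 in shNS. Of 55 DNA repair genes outside the replication fork 49 were lower and 3 higher (median -1.23). The recombination genes XRCC2 and RAD54L were at 86.7 in shBP3-2 against 798 in shNS and 142 in shBP3-2 against 1163 in shNS, the helicase BRIP1 at 215 in shBP3-2 against 1868 in shNS and POLQ, the polymerase of microhomology end joining, at 348 in shBP3-2 against 2686 in shNS. RAD54B was at 20.04 in shBP3-2 against 243 in shNS, but it overlaps FSBP, at 37.6 in shBP3-2 against 376 in shNS, and their reads may have been shared. Genes of telomerase and of the telomere-binding shelterin complex gave 11 lower and 1 higher of 15 (median -0.45). TERT, the catalytic subunit of telomerase, fell to 13.03 in shBP3-2, against 219 in shNS (log2 fold change -4.07, 95% interval -4.82 to -3.33). The trafficking factor WRAP53 was at 113 in shBP3-2 against 336 in shNS. DKC1, NHP2 and GAR1, proteins shared with the small nucleolar particles, had log2 fold changes of -1.22, -1.19 and -1.05.

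Genes of nuclear traffic and RNA processing were mostly lower. Nuclear pore and transport genes gave 39 lower and 2 higher of 44 (median -0.95), led by the import receptor IPO5 at 2783 in shBP3-2 against 13235 in shNS (log2 fold change -2.25, 95% interval -2.39 to -2.11), with RANBP1 at 1009 in shBP3-2 against 3321 in shNS and KPNA2 at 1845 in shBP3-2 against 5866 in shNS. Spliceosome and pre-mRNA factors gave 50 lower and 1 higher of 55 (median -0.84). The core particle proteins SNRPD1, SNRPB, SNRPF and SNRPE had log2 fold changes of -1.85, -1.37, -1.29 and -1.27, and HNRNPA1 averaged 12397 in shBP3-2 against 44042 in shNS. Genes of RNA decay and RNA-binding regulators gave 30 lower and 5 higher of 51 (median -0.32), among them the exosome subunits EXOSC8, EXOSC9 and EXOSC2 at -1.64, -1.61 and -1.59 and the microRNA effector AGO2 at -1.21. Of 24 genes of the IGF2BP family and the m6A machinery, IGF2BP3 among them, 17 were lower and 1 was higher (median -0.36). METTL3, the catalytic methyltransferase, averaged 1171 normalised reads in shBP3-2 cells and 2019 in shNS cells, YTHDF1, a reader of the mark, 953 in shBP3-2 against 1431 in shNS, and HNRNPA2B1, a proposed reader, 13849.9 in shBP3-2 against 28596 in shNS.

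Genes of protein production and quality control were more often lower than higher. Aminoacyl-tRNA synthetases gave 29 lower and 1 higher of 36 (median -0.74), led by the enzymes charging glycine and alanine, GARS1 at 3027 in shBP3-2 against 10691 in shNS and AARS1 at 3221 in shBP3-2 against 9679.8 in shNS. Chaperonin and heat shock chaperones gave 29 lower and 0 higher of 37 (median -0.93). HSP90AA1, the inducible cytosolic HSP90, fell to 7695 normalised reads in shBP3-2 cells, against 24312 in shNS cells (log2 fold change -1.66, 95% interval -1.78 to -1.54). The chaperonin subunits CCT5, CCT8 and CCT7 had log2 fold changes of -1.44, -1.37 and -1.31, and FKBP5, a cochaperone induced by glucocorticoids, -1.82. Proteasome subunits gave 34 lower and 0 higher of 38 (median -0.52), from PSMA4 at 3159.6 in shBP3-2 against 6482 in shNS (log2 fold change -1.04) to members near no change. The 4 that were not called were PSMA1, PSME1, PSMB9 and PSMB10, of which PSMB9 and PSMB10 encode subunits of the immunoproteasome.

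Within mitochondria the counts lay further from the background for the ribosome than for the respiratory chain. Mitochondrial ribosome and translation genes gave 66 lower and 2 higher of 76 (median -0.66), with MRPL10 at 249 in shBP3-2 against 781 in shNS, MRPL11 at 329 in shBP3-2 against 890.0 in shNS and MRPS27 at 1654 in shBP3-2 against 3722 in shNS. Nuclear-encoded subunits of the respiratory chain gave 29 lower and 3 higher of 76, and 44 were not called (median -0.25). COX5B, of cytochrome oxidase, had the largest change at 1917 in shBP3-2 against 3517 in shNS (log2 fold change -0.88). Tricarboxylic acid cycle genes gave 16 lower and 7 higher of 32 (median -0.25). FH, the fumarase, was lower at 1610.0 in shBP3-2 against 3270.1 in shNS, while IDH1, the cytosolic isocitrate dehydrogenase that makes NADPH, was higher at 7474 in shBP3-2 against 3714 in shNS.

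DNA methylation and Polycomb genes fell more often than they rose, and most genes for other chromatin enzymes were not called. DNA methylation and Polycomb genes gave 18 lower and 5 higher of 31 (median -0.47). UHRF1, which guides maintenance methylation, and DNMT1, the maintenance methyltransferase, were at 884 in shBP3-2 against 4099 in shNS and 2807 in shBP3-2 against 10103 in shNS, DNMT3B at 424 in shBP3-2 against 1517 in shNS, and EZH2, the catalytic subunit of Polycomb complex PRC2, at 614 in shBP3-2 against 2288 in shNS. Histone demethylases, deacetylases and acetyltransferases gave 12 lower and 6 higher of 38 (median -0.070), with KDM1B higher at 6816 in shBP3-2 against 3516 in shNS and HDAC2 lower at 2474 in shBP3-2 against 4655 in shNS. KMT2A fusion partners and cofactors, of interest in a line with a KMT2A fusion, gave 16 lower and 2 higher of 26 (median -0.38). DOT1L, the histone H3 lysine methyltransferase recruited by such fusions, averaged 1666 normalised reads in shBP3-2 cells and 4171 in shNS cells (log2 fold change -1.32, adjusted p = 3.4e-60), PSIP1, which tethers the complex to chromatin, 536 in shBP3-2 against 1877 in shNS (-1.81), and MEN1, which encodes menin, 343 in shBP3-2 against 547 in shNS (-0.67). ELL2, an elongation factor, was the member that changed most and was higher at 258 in shBP3-2 against 48.9 in shNS (log2 fold change 2.401).

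Homeobox genes outside the HOXA cluster gave 13 lower and 5 higher of 26 (median -0.33). HOXB9 averaged 3.01 normalised reads in shBP3-2 cells and 177 in shNS cells, the largest decrease of the 12294 genes (log2 fold change -5.88, 95% interval -7.17 to -4.59), and HOXC4 averaged 60.6 in shBP3-2 against 343 in shNS. MEIS3 and ZEB1 were higher at 109.7 in shBP3-2 against 2.47 in shNS and 361 in shBP3-2 against 64.7 in shNS. Lineage transcription factors gave 24 higher and 12 lower of 49 (median 0.18). CEBPD, BCL6 and KLF4, factors made in maturing monocytes, were at 834 in shBP3-2 against 223 in shNS, 1014 in shBP3-2 against 386 in shNS and 569 in shBP3-2 against 229 in shNS, while MYC, the growth regulator, fell to 2367 normalised reads in shBP3-2 cells, against 6769 in shNS cells (log2 fold change -1.52), and the stress-responsive ATF3 and the dendritic cell factor BATF3 were lower at 93.7 in shBP3-2 against 431 in shNS and 110.3 in shBP3-2 against 402 in shNS.

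Signalling genes were divided. Feedback genes of the MAPK and RAS pathway gave 11 higher and 7 lower of 25 (median 0.23), with PHLDA1 at 1929 in shBP3-2 against 266 in shNS, the phosphatase DUSP10 at 1534 in shBP3-2 against 562 in shNS and the transcription factor ETV4 lower at 97.7 in shBP3-2 against 513 in shNS. Regulators of G protein signalling and phosphodiesterases gave 16 higher and 10 lower of 35 (median 0.204), and RGS16, which shortens G protein signals, was lower at 177 in shBP3-2 against 1212 in shNS. Purinergic and other G protein-coupled receptors gave 24 higher and 3 lower of 35 (median 0.92), led by GPR183, the oxysterol receptor, at 4235 in shBP3-2 against 732 in shNS, and the adenosine receptor ADORA2B at 1319.9 in shBP3-2 against 328 in shNS. GPR84, a receptor for medium-chain fatty acids, was lower at 234 in shBP3-2 against 811 in shNS. Src, Syk and lymphoid-type signalling genes gave 23 higher and 8 lower of 39 (median 0.41), with the Src-family kinase FGR at 742 in shBP3-2 against 206 in shNS and the CD300 receptors CD300C and CD300LF at 1068 in shBP3-2 against 239.8 in shNS and 2642 in shBP3-2 against 668 in shNS. Small GTPases and actin regulators gave 29 higher and 16 lower of 58 (median 0.24), with RHOU at 1369 in shBP3-2 against 308 in shNS and the intermediate filament gene VIM at 35714 in shBP3-2 against 11199.5 in shNS. Semaphorins, plexins, ephrins and netrin receptors gave 13 higher and 7 lower of 25 (median 0.24).

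Apoptosis regulators gave 17 higher and 11 lower of 37 (median 0.29). BCL2, the survival gene targeted by venetoclax, fell to 884 normalised reads in shBP3-2 cells, against 4661 in shNS cells (log2 fold change -2.399, 95% interval -2.56 to -2.24, adjusted p = 1.6e-189). Its relative BCL2A1 was higher at 2329.7 in shBP3-2 against 434 in shNS (2.43, 1.85 to 2.997), as was BCL2L11, the pro-apoptotic gene for BIM, at 4828 in shBP3-2 against 2044 in shNS. BIRC5, which encodes survivin and peaks in dividing cells, was lower at 183 in shBP3-2 against 1119 in shNS, and AIFM2, a suppressor of ferroptosis, was higher at 451 in shBP3-2 against 171 in shNS.

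Transporters changed in both directions. Amino acid transporters gave 10 higher and 13 lower of 25 (median -0.26): the glycine carrier SLC6A9, the glutamine carriers SLC1A5 and SLC38A5 and the large neutral amino acid carrier SLC7A5 fell, at 19.04 in shBP3-2 against 301 in shNS, 1239 in shBP3-2 against 6150.2 in shNS, 179 in shBP3-2 against 811 in shNS and 2572 in shBP3-2 against 10729 in shNS. SLC43A2, another carrier of large neutral amino acids, and the glutamate carrier SLC1A3 rose, at 1637 in shBP3-2 against 254 in shNS and 321 in shBP3-2 against 70.6 in shNS. Potassium, calcium and chloride channels and pumps gave 16 higher and 9 lower of 35 (median 0.32), with the calcium pump ATP2B2 at 437 in shBP3-2 against 21.2 in shNS and the potassium channel KCNH2 at 20.04 in shBP3-2 against 191 in shNS. Carriers of glucose, lactate, vitamins and metals gave 11 higher and 9 lower of 25 (median 0.24, which was -0.072 without the minimum on the mean count). SLC16A6, of the monocarboxylate family, averaged 895 normalised reads in shBP3-2 cells and 54.8 in shNS cells and the zinc and iron carrier SLC39A14 averaged 305 in shBP3-2 against 1211 in shNS.

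In several groups of genes related by family or by a shared role, members moved in opposite directions with hairpin 2. These genes were chosen after their values were seen, so they are a description only. In the desaturase cluster on chromosome 11, FADS1 (61799625 to 61829318) and FADS2 (61792980 to 61867354) had log2 fold changes of -2.65 and -5.53, while their neighbour FADS3 (61873519 to 61892051) had 1.32 (95% interval 0.77 to 1.86, adjusted p = 9.4e-06). The spans of FADS1 and FADS2 overlap, and reads may have been shared between them. Of the acetyl-CoA carboxylases, the cytosolic ACACA was at 1462 in shBP3-2 against 4329.7 in shNS and the mitochondrial ACACB at 832 in shBP3-2 against 344 in shNS. Of the carriers of large neutral amino acids, SLC7A5 and SLC43A1 had log2 fold changes of -2.06 and -0.91, and SLC43A2 had 2.69. The Polycomb readers CBX2 and CBX7 had -0.97 and 2.08, and the signalling adaptors FCER1G and TYROBP -2.54 and 2.06. TREML2 and TREM1 had -1.21 and 2.45, the phosphodiesterases PDE3A, PDE4A and PDE4B -2.17, -1.602 and 1.799, and the semaphorins SEMA7A and SEMA6B -2.14 and 3.84. The granule genes MPO, for myeloperoxidase, and ELANE, for neutrophil elastase, averaged 72.7 in shBP3-2 against 407 in shNS and 19841 in shBP3-2 against 3983 in shNS normalised reads. Of these genes, FADS3, CBX2, CBX7, TREM1, PDE3A and PDE4B were not called with hairpin 1. Their log2 fold changes with it were -0.44, -0.046, 0.50, 0.69, -0.16 and 0.78 (adjusted p = 0.38, 0.88, 0.28, 0.21, 0.55 and 0.11). The other genes named here were called in the same direction by both hairpins.

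**Figure D4:**
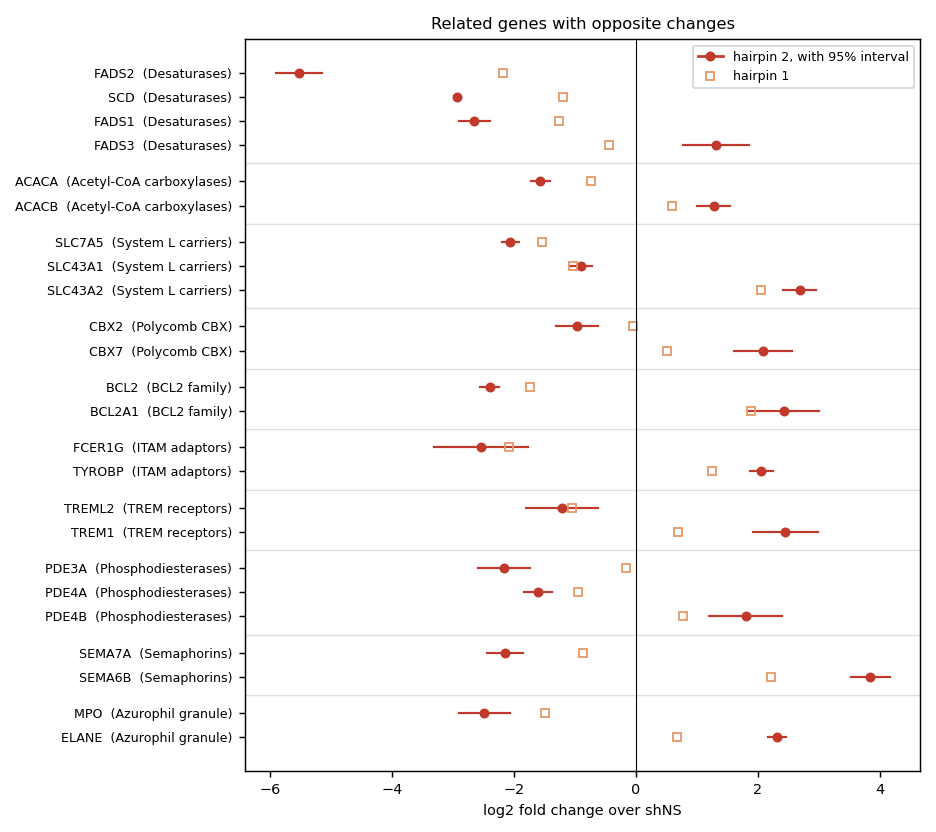
Log2 fold changes over shNS of genes related by family or shared role, chosen because they moved in opposite directions with hairpin 2. Hairpin 2 is shown as filled red points with 95% intervals and hairpin 1 as open squares without intervals. SCD has no interval because its adjusted p is listed as 0. FADS3, CBX2, CBX7, TREM1, PDE3A and PDE4B were not called with hairpin 1. With hairpin 2, FADS3 stood at 1.32 beside FADS2 at -5.53, and BCL2A1 at 2.43 beside BCL2 at -2.399.

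Among the 30 genes with the largest increases were several outside these lists. ANPEP, the myeloid surface peptidase CD13, averaged 560.2 normalised reads in shBP3-2 cells and 33.05 in shNS cells (log2 fold change 4.08), and the procollagen peptidase ADAMTS2 averaged 557 in shBP3-2 against 31.6 in shNS. IFI30, a lysosomal thiol reductase used in antigen processing, was at 227 in shBP3-2 against 17.3 in shNS, and the anion carriers SLC26A7 and SLC26A11 were at 203 in shBP3-2 against 9.87 in shNS and 120.3 in shBP3-2 against 7.40 in shNS. AKR1C2, a hydroxysteroid dehydrogenase with near-identical relatives, was at 274 in shBP3-2 against 20.7 in shNS. Among the 30 largest decreases, INHBE, a subunit of activin E, was at 20.04 in shBP3-2 against 231 in shNS, the growth factor gene FGF9 at 9.52 in shBP3-2 against 107 in shNS, and IKZF3, the lymphoid factor Aiolos, at 10.02 in shBP3-2 against 107 in shNS. PSAT1, an enzyme of serine synthesis, averaged 825 in shBP3-2 against 7478 in shNS (log2 fold change -3.18). SNAP25, of the vesicle fusion machinery, and CSRP3, best known from muscle, were at 10.02 in shBP3-2 against 103 in shNS and 18.04 in shBP3-2 against 164 in shNS.

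By gene type, the 1084 long noncoding RNAs gave 308 higher (28.4%) and 170 lower (15.7%), with a median log2 fold change of 0.17. The 10615 protein-coding genes gave 2945 higher (27.7%) and 4038 lower (38.0%), with a median of -0.097. The share of long noncoding RNAs called higher was near that over all 12294 genes (27.6%), and the share called lower was below it (34.9%). Genes between 50 and 200 normalised reads gave 25.1% higher and 17.0% lower, and gene type was not separated from level. Pseudogenes of all kinds gave 101 higher (24.5%) and 65 lower (15.8%) of 412. MALAT1, a nuclear long noncoding RNA, averaged 599575 normalised reads in shBP3-2 cells and 193594 in shNS cells (log2 fold change 1.63, 95% interval 1.52 to 1.74) and had the second highest mean count of all genes. Of the 15 genes with the most reads, the elongation factor gene EEF1A1 was at 469675 in shBP3-2 against 488043 in shNS (adjusted p = 0.57), EEF2 at 89517 in shBP3-2 against 149536 in shNS (log2 fold change -0.74), and the filamin gene FLNA at 247906 in shBP3-2 against 100977 in shNS (1.296). RN7SL1, a noncoding RNA of the signal recognition particle that has no poly(A) tail of its own, was at 464308 in shBP3-2 against 240544 in shNS (0.95, 95% interval 0.496 to 1.402).

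Hairpin 2 was set beside hairpin 1, and since both comparisons use the same shNS libraries, no likeness between them is counted. With hairpin 1, 42.5% of 12191 genes were called, 22.0% higher and 20.5% lower. A test of the difference between the hairpins called 4356 of the 12275 genes at the minimum in either direction (35.5%). Its standard error takes the controls as independent and is therefore too large. Lysosomal hydrolases gave 31 higher of 36 with hairpin 2 and 30 of 36 with hairpin 1 (medians 1.26 and 0.65), and the difference was called for 23 of 35, with a median difference of 0.63. For the vacuolar ATPase the medians were 0.61 and 0.65, and 5 of 15 differences were called.

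The hairpins differed in many genes of protein and energy metabolism. Proteasome subunits gave 34 lower with hairpin 2, and 3 lower and 7 higher with hairpin 1 (medians -0.52 and 0.082), with 31 of 38 differences called and a median difference of -0.599. Chaperones gave medians of -0.93 and -0.047 with 30 of 37 differences called, and the mitochondrial ribosome -0.66 and -0.035 with 45 of 76. Respiratory chain subunits were lower in 29 and higher in 3 genes with hairpin 2, and lower in 1 and higher in 25 with hairpin 1. HSP90AA1 had a log2 fold change of -1.66 with hairpin 2 and 0.17 with hairpin 1 (adjusted p of the difference 8.7e-72), and FLT3 had -1.69 and -0.31 (8.6e-38). SIGLEC1 had the larger increase with hairpin 1, at 7.12 beside 4.03 with hairpin 2 (1.7e-15). Some genes with large increases with hairpin 2 were not called with hairpin 1. With hairpin 1, APOE had 1.33 (adjusted p = 0.16), SLC16A6 0.72 (0.11), FPR1 0.14 (0.92) and TREM1 0.69 (0.21). Others were called higher with both, such as MMP2 at 1.54 (1.4e-26) and CXCL8 at 1.48 (0.012) with hairpin 1. IGF2BP3 itself was at 48.8% of its shNS level with hairpin 2, and the difference between the hairpins for this gene was not called (adjusted p = 0.15).

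The degradation of IGF2BP3 in U937 cells for 24 h used other cells and other controls. Its libraries are titled mRNA and those of MOLM13 total RNA, so the RNA fraction may differ as well. At 24 h in U937, 49.7% of 11943 genes were called, 24.3% higher and 25.5% lower. Of the genes measured in MOLM13, the fatty acid list had medians of -0.499 in shBP3-2 cells and -0.61 in U937 at 24 h, and FADS2, SCD and FADS1 had log2 fold changes of -5.53, -2.94 and -2.65 in shBP3-2 cells beside -2.06, -2.37 and -2.005 in U937. Lysosomal hydrolases had medians of 1.26 in shBP3-2 cells and -0.18 in U937, and complement genes 1.76 and -0.64. The mitochondrial ribosome had -0.66 and 0.19, and nucleotide synthesis -1.21 and -0.41. Differences between the cell lines were not tested.

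**Figure D5:**
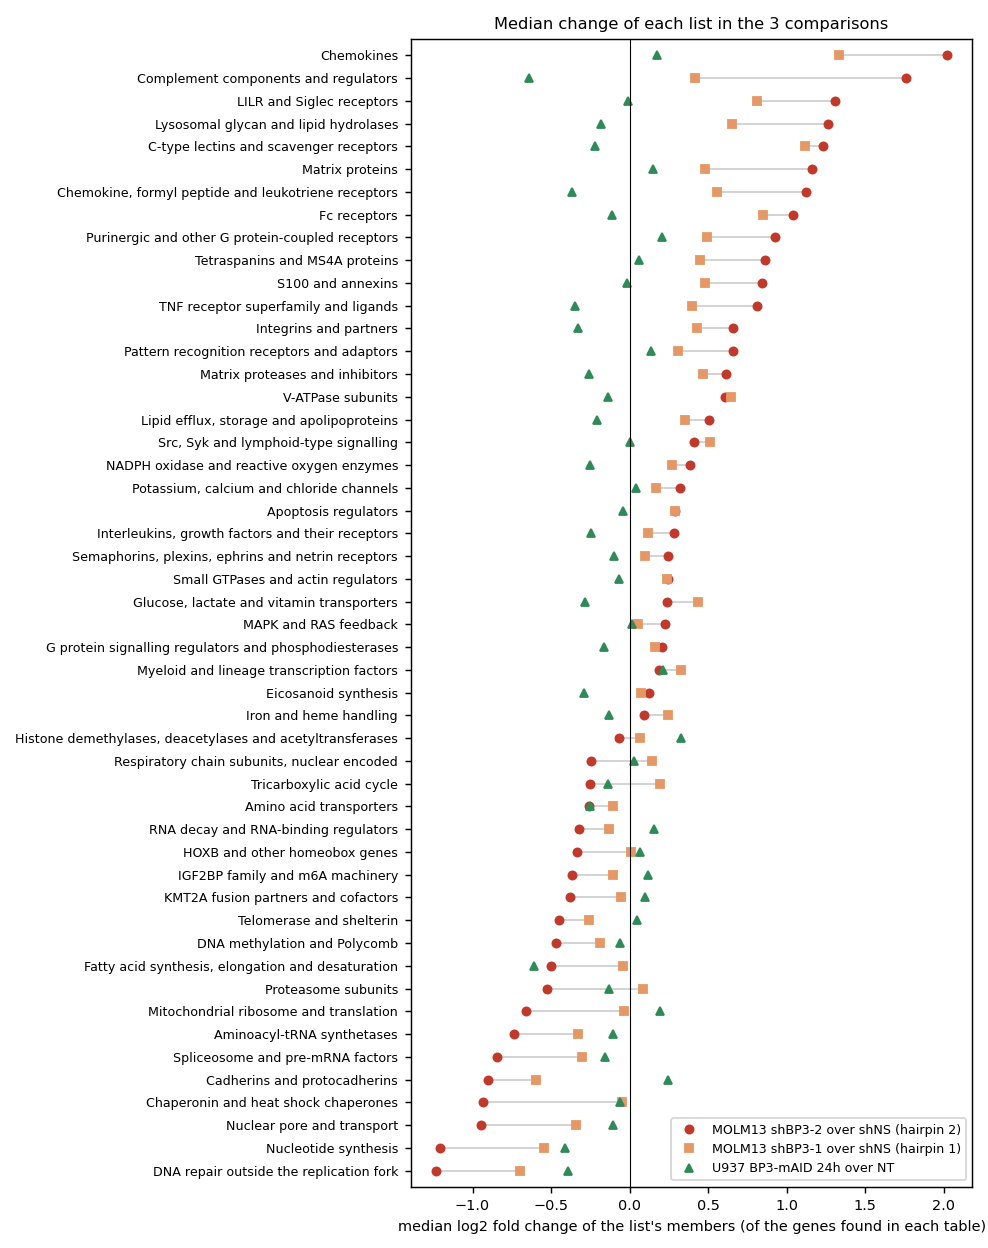
Median log2 fold change of each list's genes with hairpin 2 (red circles), with hairpin 1 (orange squares) and in U937 cells after 24 h of degradation (green triangles), over the genes found in each comparison, with a grey line joining the hairpins. Lysosomal hydrolases stand at 1.26, 0.65 and -0.18, and chaperones at -0.93, -0.047 and -0.060.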

How the data were processed

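Gene expression was measured by RNA-seq in 12 libraries, 2 in each of 6 groups. Per the submitters' processing notes, cutadapt 4.1, HISAT2 2.1.1, HTSeq 2.0.2, DESeq2 and the build hg38 were used. The authors deposited, per the file headers, for each gene its signal (a mean normalised count over the libraries of a comparison), its log2 fold change and its adjusted p-value. Whether fold changes were shrunk is not given in the sources used here. Depth per library was not analysed here, which leaves each mean without a replicate error. Log2 fold changes and adjusted p-values from the authors' DESeq2 fit are copied from the authors' deposited table.

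The group means follow from the mean and the fold change. Standard errors were recovered by undoing the Benjamini-Hochberg adjustment and assuming a two-sided Wald test, and give the 95% intervals; a gene with an adjusted p of 0 has none. The shNS means worked out from both hairpin comparisons differed by a median of 0.00843% over 11993 genes, after a constant ratio of 0.978. The hairpins were compared by a z-test of the difference. It was adjusted with Benjamini-Hochberg over all genes with a usable standard error in both comparisons, of which 12275 reached the minimum with hairpin 2. Gene types are those the authors deposited for each gene. Gene positions came from GENCODE release 29, which matched 12168 of the 12294 genes, and promoters from RefSeq (GRCh38.p14). The steps were tested on simulated data, with Python 3.11.15, pandas 2.3.3, numpy 2.4.6, scipy 1.17.1 and matplotlib 3.10.9.

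The genes, the 50 functional lists and the 5 marker lists were chosen with earlier results of these data known; motifs and related genes shown for moving apart were chosen after their values were seen. Genes named are IGF2BP3, its relatives, the 30 highest and 30 lowest fold changes, up to 6 per list with the largest absolute change, the 15 with the most reads and those next to the minimum, and any other gene named was chosen after its value was seen. U937 at 6 h was not used here, and a few single genes are not reported here. Another p threshold, a 2-fold minimum, other minimums on the mean count, centring on the median gene, adjustment over the 12294 genes alone and means in place of medians were tried.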

Additional observations from a re-analysis of the deposited data

Results flagged for a closer look

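With hairpin 2, 62.5% of the 12294 genes with a mean count of 50 or more were called, and with hairpin 1, 42.5% of 12191. Of the 12294 genes, 286 were called in opposite directions by the hairpins with the difference between the hairpins past its test. The 12275 genes with a usable standard error in both comparisons could enter this count. Of these 286, 91 were higher and 195 lower with hairpin 2. The comparisons share the shNS libraries, and why the hairpins differ was not tested. Those named by the rule for named genes are given as log2 fold changes with hairpin 2 and then hairpin 1. VCAN, the versican proteoglycan gene, had 2.95 and -1.84, a difference of 4.79, and CSF3R, the granulocyte colony-stimulating factor receptor, had 1.37 and -0.29, a difference of 1.66. FCMR, the IgM receptor, had -1.96 and 1.04, a difference of -3.0, and PAX5, the B-lineage factor, had -0.68 and 0.64, a difference of -1.32. UQCR10, a subunit of respiratory complex III, had -0.805 and 0.51, a difference of -1.31. Of the genes with the most reads, TPT1 had 0.36 and -0.61, a difference of 0.97, RPL10, a ribosomal protein gene, had 0.17 and -0.56, a difference of 0.74, and ACTB, the beta-actin gene, had -0.35 and 0.22, a difference of -0.57.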

How the results depend on the processing

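The count of 7686 genes stayed within 1.5 times its value, between 6567 and 8616, under an adjusted p of 0.01, no minimum on the mean count, a minimum of 200, centring on the median gene, and adjustment over the 12294 genes alone. A 2-fold minimum gave 2530 genes, 1224 higher and 1306 lower, fewer by construction. Centring moved every fold change by 0.061 and gave 3722 genes higher and 3875 lower, and IGF2BP3 then had a log2 fold change of -0.97. The median of 30 of the 50 lists was above 0, and of 29 lists with no minimum; carriers of glucose, lactate and vitamins reversed to -0.072, and the cause was not tested. Dropping the minimum moved 8 other lists, among them eicosanoid genes, at 0.29 in place of 0.12. Complement genes were then at 1.41 in place of 1.76 and tetraspanins and MS4A proteins at 0.71 in place of 0.86. Receptors for chemokines, formyl peptides and lipid mediators were at 1.43 in place of 1.12, and cadherins at -1.30 in place of -0.90. Means in place of medians moved 23 lists. Those that moved by more than 1.5 times were iron and haem genes (mean 0.304, median 0.089), eicosanoid genes (0.32, 0.12), apoptosis regulators (0.085, 0.29) and regulators of G protein signalling (0.071, 0.204). Interleukins and growth factors (0.12, 0.28), matrix proteases (0.98, 0.61), oxidase genes (0.65, 0.38) and telomerase and shelterin genes (-0.799, -0.45) did so too. No paired analysis was possible because values per library were not used here, and for the same reason leaving out each replicate in turn was not run. Genes with few reads in one of the groups, such as FCAR, MEIS3 and HOXB9, have wide intervals.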
